A study of Mus musculus with 30 samples.

Results

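Trp53, the Ras genes Hras and Nras, and the 4 inhibitor genes Cdkn2a, Cdkn2b, Cdkn2c and Cdkn2d were followed from primary mouse embryonic fibroblasts (MEFs) through oncogenic transformation to tumours. The genes were taken by name, and every bead-array probe whose gene name, current or older, was one of these 7 was included. This gave 15 probes of the 45281 on the array, and Hras was listed under its older symbol Hras1. Of these, 14 passed a filter on dim probes, together with 23948 others (23962 in all). The filter asked for a level above a floor, the 60th percentile of all probes, on at least 3 of 30 arrays. The Trp53 probe ILMN_2585183 was above the floor on 2 arrays and was not tested.

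The study asked what loss of Smchd1 changes in cultured MEFs before and after transformation and in the tumours that grow from them. Wildtype cells were FVB/N, and Smchd1 null cells carried the MommeD1 point mutation on the same background. Primary MEFs were harvested after 2 to 3 passages without a transforming agent. Transformed MEFs of both genotypes carried p53 knockdown together with HRasV12 overexpression and were harvested after 2 weeks. Tumours of both genotypes came from these transformed cells, so they carried the same agents, and were taken fresh from nude mice, which lack T cells but have their own stroma, vessels and myeloid cells. Wildtype cells were grown in recipients 1 to 3 and null cells in recipients 4 to 6. The vector, the promoter, the knockdown sequence, the species of the HRasV12 sequence and whether a line was clonal were not stated in the labels. Each culture group had 3 arrays, and each of the 6 recipients had 3 arrays that were averaged, so n = 3 in each of the 6 groups. Whether the cultures of a group came from separate embryos is not stated, so the p-values rest on a spread that may be technical.

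Trp53 encodes p53, a transcription factor that halts the cell cycle or starts cell death after DNA damage or oncogene signalling. Hras and Nras encode small GTPases that pass growth factor signals to the Raf and PI3K pathways, and the V12 form of HRas stays in the active, GTP-bound state. The Cdkn2 genes encode the INK4 inhibitors of Cdk4 and Cdk6, which keep Rb active. Cdkn2a also encodes p19Arf from an upstream first exon, and p19Arf holds back Mdm2, the ligase that degrades p53. Active Ras is known to raise p16Ink4a and p19Arf in cultured fibroblasts, p53 is known to repress the locus, and loss of p53 or of Arf lets Ras transform MEFs.

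Cdkn2a and Cdkn2b, whose probes rose most of the 7 genes with transformation in the results that follow, lie side by side on mouse chromosome 4. RefSeq (GRCm38.p6) gives windows of 300 bases, from 250 before to 50 after each start, all on the minus strand. The 3 windows are shown because both genes rose together and Cdkn2a has 2 starts, 12427 bases apart, for p19Arf and for p16Ink4a. The Cdkn2b start lies 16413 bases before the upstream Cdkn2a start. Capitals mark matches to any of 6 motifs, searched on both strands.
Cdkn2a, upstream start (p19Arf), chr4:89294570-89294869: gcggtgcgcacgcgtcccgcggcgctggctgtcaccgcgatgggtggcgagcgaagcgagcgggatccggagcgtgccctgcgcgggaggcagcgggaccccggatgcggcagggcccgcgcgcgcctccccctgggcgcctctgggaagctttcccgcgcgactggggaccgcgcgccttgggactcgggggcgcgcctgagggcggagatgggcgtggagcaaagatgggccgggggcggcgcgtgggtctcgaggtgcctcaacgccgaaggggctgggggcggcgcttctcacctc
Cdkn2a, downstream start (p16Ink4a), chr4:89282143-89282442: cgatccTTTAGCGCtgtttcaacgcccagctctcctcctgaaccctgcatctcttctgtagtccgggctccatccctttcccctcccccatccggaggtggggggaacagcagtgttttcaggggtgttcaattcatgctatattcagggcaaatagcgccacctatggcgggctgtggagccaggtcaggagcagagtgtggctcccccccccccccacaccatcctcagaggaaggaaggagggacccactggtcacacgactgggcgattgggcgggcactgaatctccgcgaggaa
Cdkn2b, chr4:89310983-89311282: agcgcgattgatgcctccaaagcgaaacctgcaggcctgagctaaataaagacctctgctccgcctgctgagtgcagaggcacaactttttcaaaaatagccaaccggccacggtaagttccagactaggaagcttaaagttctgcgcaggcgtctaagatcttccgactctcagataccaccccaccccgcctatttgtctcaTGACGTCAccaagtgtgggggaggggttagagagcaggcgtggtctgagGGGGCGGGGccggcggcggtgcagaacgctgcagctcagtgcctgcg
The motifs were chosen with results of these data known. They were AP-1 (TGANTCA), CRE (TGACGTCA), Ets (CCGGAAGT), E2F (TTTNGCGC), the E-box (CACGTG) and a GC box (GGGGCGGGG). No motif matched in the upstream Cdkn2a window. The downstream Cdkn2a window held 1 E2F match, which starts at position -244 from the start site, and 1.38% of all 32851 windows hold that motif. The Cdkn2b window held a CRE match at position -46, present in 1.79% of windows, and a GC box at position 4, present in 11.4%. The Ets, AP-1 and E-box letters, found in 3.89%, 7.81% and 7.15% of all windows, are in none of the 3. The upstream Cdkn2a window was 77% G and C, with 45 CG pairs, against a median of 52.7% and 7 pairs over all windows. The downstream window had 60.3% and 12 pairs, and the Cdkn2b window had 57.7% and 18 pairs.

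Levels are log2 intensities after quantile normalization of all 30 arrays, and a probe's level cannot be set against that of another probe. A difference was called where limma's p, adjusted over all 23962 kept probes, was under 0.05. The floor was at 6.42 on every array. It stands in for background, which was not measured here. Primary, transformed and tumour arrays were run on separate chips (1, 1 and 3), so stage and chip cannot be told apart. Smchd1 was lower in the null groups by its probe ILMN_1242619, with log2 differences of -2.32 ± 0.09 (SE) before transformation, -2.13 ± 0.10 after it and -1.18 ± 0.13 in tumours. The first 2 were called by limma (adjusted p = 6.27e-05 and 0.000229) and the last was not (adjusted p = 1). Other kept Smchd1 probes gave smaller differences in the same direction. ILMN_1230552 differed by -0.57, -0.73 and -0.66 and was called in transformed MEFs only (limma, adjusted p = 0.0065). ILMN_2853225 differed by -0.18, -0.30 and -0.23 and was not called at any stage. The median SD between replicates was 0.138 and 0.137 in primary and transformed MEFs and 0.263 in tumours. Array 3 of wildtype recipient 3 correlated at 0.22 and -0.05 with the other arrays of that mouse in deviations from the mean of all 18 tumour arrays. The arrays of recipient 1 (0.12, 0.43 and 0.35) and of recipients 4 and 5 were also uneven (0.54, 0.17 and -0.28, and 0.29, 0.53 and -0.17). On the deposited scale the median difference over all kept probes moved from -0.04 to 0.28 for tumours against transformed MEFs in wildtype and from -0.05 to 0.26 in null, so tumour differences depend on the scale.

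Trp53, the target of the knockdown, was checked first in every sample by its probe ILMN_2466845, above the floor on all 30 arrays. Its log2 level was 10.96, 11.08 and 10.85 in the 3 wildtype primary cultures and 10.59, 10.71 and 10.65 in the null ones. In transformed MEFs it was 7.55, 7.67 and 7.53 in wildtype and 7.72, 7.39 and 7.54 in null. Every transformed culture was below every primary culture, and each stayed above the floor. Transformation lowered it by a log2 difference of -3.38 ± 0.10 (SE, n = 3 against 3) in wildtype, which is 10.4-fold (limma, adjusted p = 1.85e-11). In null the difference was -3.10 ± 0.10, or 8.57-fold (adjusted p = 3.42e-11). The loss differed between genotypes by 0.28 ± 0.14, which was not called (adjusted p = 0.39). Other cell markers moved with it. All 10 measured macrophage genes were called lower in transformed than in primary MEFs in both genotypes, and their summed log2 level went from between 14.82 and 15.21 to between 9.90 and 9.97 in wildtype. Skeletal muscle genes were called lower in 4 of 4 and erythroid genes in 2 of 4 in both genotypes, endothelial genes in 7 of 7 in wildtype and 6 of 7 in null. Of 7 keratinocyte and epithelial genes 5 were called lower in wildtype and 6 in null, with 1 higher in each, and of 10 fibroblast genes 6 were called lower in each, with 3 higher in wildtype and 2 in null. Their part in the Trp53 difference was not tested.

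**Figure D1:**
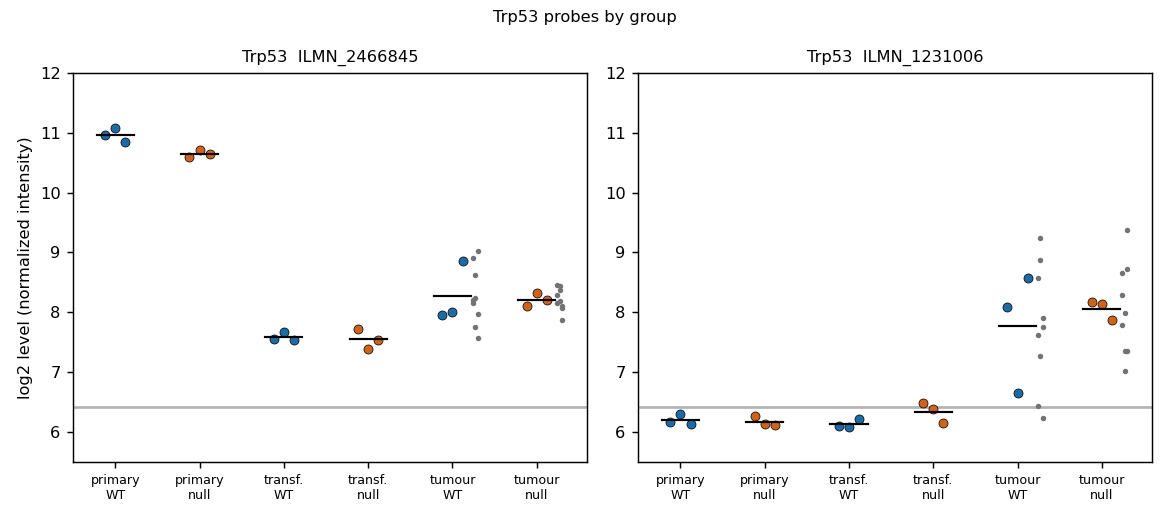
Log2 level (normalized intensity) of the 2 tested Trp53 probes by group. Coloured points are samples (a culture, or a recipient's mean of 3 arrays; blue wildtype, orange Smchd1 null), black lines are group means, grey points are single tumour arrays and the grey line is the floor. ILMN_2466845 went from 10.97 to 7.58 in wildtype means with transformation and stood at 8.27 in tumours, while ILMN_1231006 had group means above the floor in tumours only.

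Hras, the gene whose V12 form was overexpressed, showed no rise of comparable size. Its probe ILMN_2481071 was at 10.32, 10.20 and 10.17 in wildtype primary MEFs and at 10.25, 10.09 and 10.16 after transformation. In null cultures it was at 10.08, 10.21 and 10.00 before and at 10.44, 10.32 and 10.35 after. The wildtype cultures overlapped and the null ones did not. The log2 difference was -0.06 ± 0.09 in wildtype (adjusted p = 0.627) with a 95% interval from -0.25 to 0.13. In null it was 0.27 ± 0.09 (adjusted p = 0.0231), a call lost with the values as deposited (0.21, adjusted p = 0.0578) and without null primary replicate 1 (0.26, adjusted p = 0.0576) or 3 (0.22, adjusted p = 0.0878) or null transformed replicate 1 (0.24, adjusted p = 0.0764), and in an unweighted fit of all groups (adjusted p = 0.112). The second probe, ILMN_1223624, differed by 0.03 ± 0.13 in wildtype and 0.19 ± 0.13 in null, neither of which was called. The probes were not placed on the transcript here, so whether they can see the introduced HRasV12 RNA is unknown.

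In tumours the Hras probe ILMN_1223624 was at 9.09, 9.22 and 8.99 in wildtype recipients and at 8.89, 8.89 and 8.94 in null ones. Transformed MEFs had been at 9.86, 9.92 and 9.83 in wildtype and at 9.95, 9.93 and 10.21 in null, above every tumour. The difference was -0.77 ± 0.18 in wildtype (adjusted p = 0.00283) and -1.12 ± 0.18 in null (adjusted p = 8.56e-05). On the deposited scale the wildtype difference was -0.27 and was not called (adjusted p = 0.255), nor was it on tumour chip 3 alone (-0.62, adjusted p = 0.097). Against primary MEFs the differences were -0.74 ± 0.18 and -0.94 ± 0.18 (adjusted p = 0.00252 and 0.000316). The wildtype one was not called on the deposited scale (-0.32, adjusted p = 0.162) or on tumour chip 3 alone (-0.59, adjusted p = 0.0873), nor the null one on tumour chip 2 alone (-0.54, adjusted p = 0.0611). Probe ILMN_2481071 ranged from 9.93 to 10.42 in tumours. Its differences from transformed MEFs were -0.03 ± 0.15 in wildtype and -0.30 ± 0.15 in null, the latter without overlap, and neither was called (adjusted p = 0.915 and 0.114). Against primary MEFs they were -0.09 and -0.03 and were not called. The deposited scale turned all 4 upward, to 0.46 (adjusted p = 0.0159) and 0.19 against transformed MEFs and to 0.34 and 0.40 (adjusted p = 0.0603 and 0.0289) against primary MEFs. The 2 Hras probes correlated at -0.29 (Spearman -0.22) over the 18 tumour arrays, which share chips and mice.

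Nras, a Ras gene that the study did not target, showed no called difference between stages by ILMN_2837543. Its group means were 12.31 and 12.29 in primary MEFs, 12.25 and 12.41 in transformed MEFs, and 12.28 and 12.16 in tumours, wildtype first. Samples ran from 11.92 to 12.57, both of which were wildtype tumours. Transformation gave -0.06 ± 0.09 in wildtype and 0.12 ± 0.09 in null. On the deposited scale wildtype tumours were called above transformed MEFs (0.42, adjusted p = 0.0428) and above primary MEFs (0.45, adjusted p = 0.0293). The other Nras probes were near the floor. ILMN_2708270 was above it on 22 of 30 arrays, had group means from 6.40 to 6.68, and was not called in any comparison. ILMN_2708269 had group means from 6.33 to 6.78 and was not called either, with differences of 0.38 ± 0.20 and 0.30 ± 0.20 between tumours and primary MEFs. As deposited, these were 0.60 and 0.51 and were called (adjusted p = 0.0143 and 0.034), as were 0.38 and 0.30 with each stage's own spread (adjusted p = 0.0138 and 0.044). In wildtype the call was also made without the filter on dim probes (adjusted p = 0.046) and in an unweighted fit of all groups (adjusted p = 0.0306), and on the deposited scale wildtype tumours were called above transformed MEFs by this probe too (0.53, adjusted p = 0.0316).

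**Figure D2:**
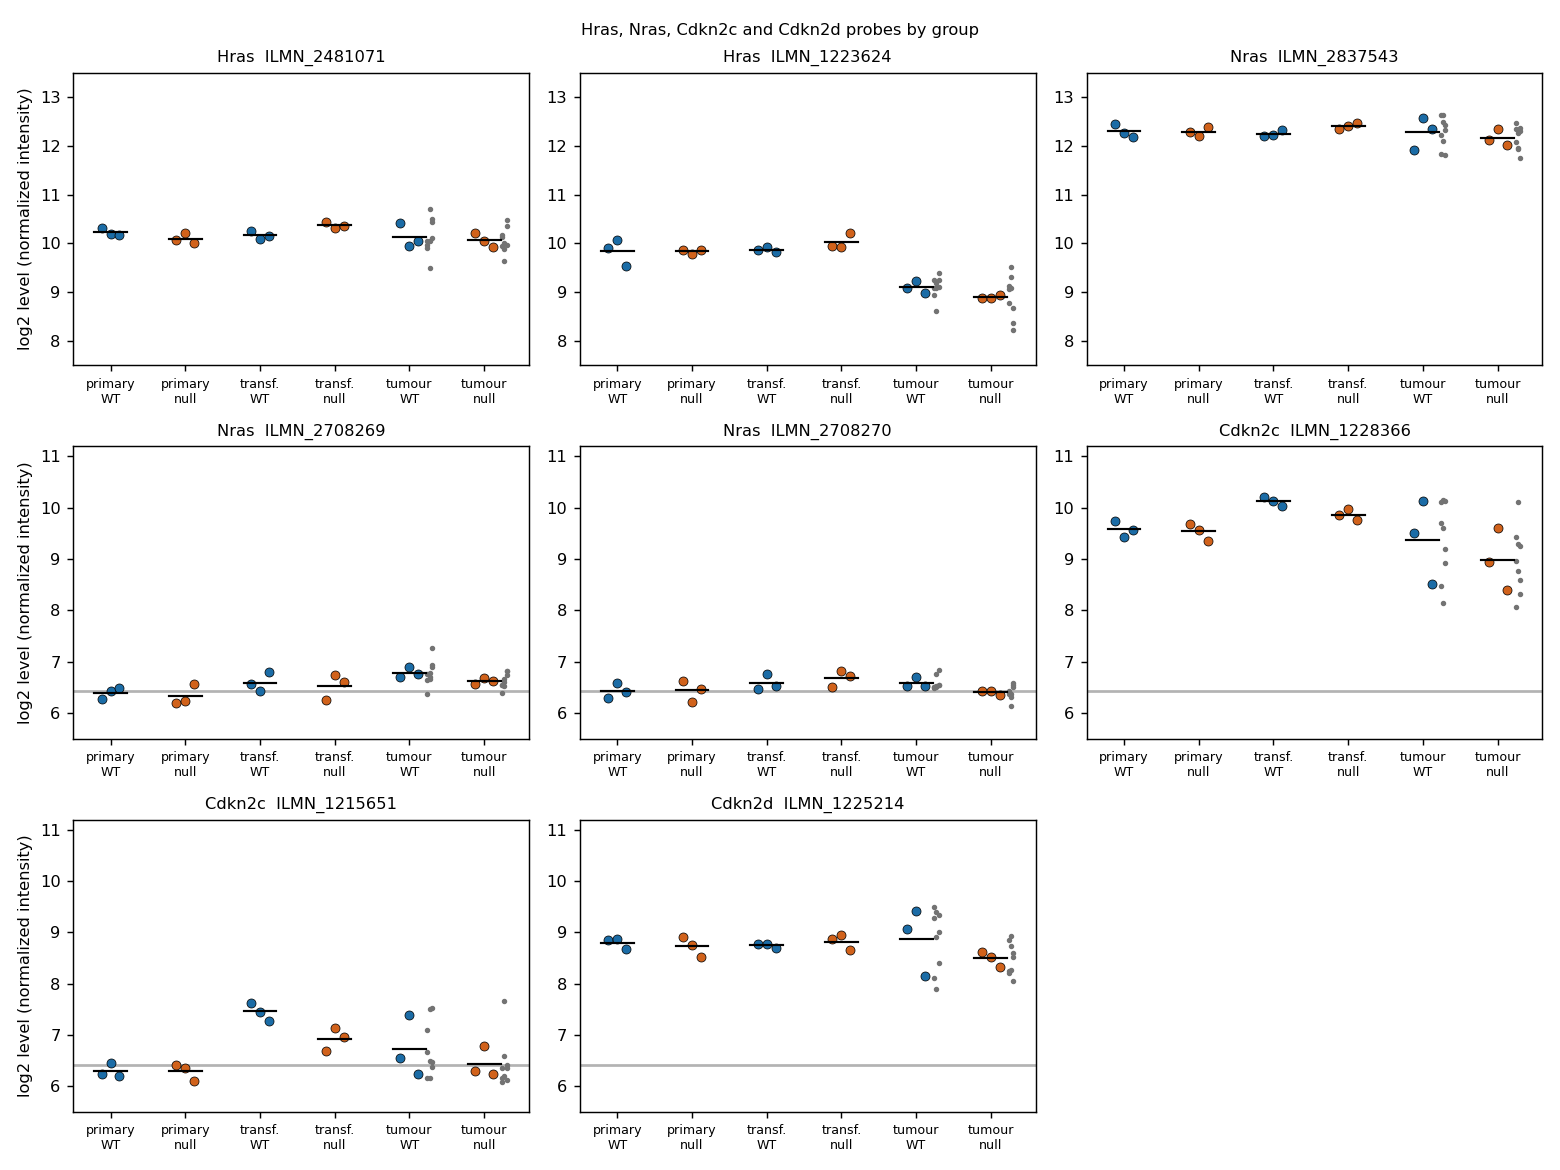
Log2 level (normalized intensity) of the Hras, Nras, Cdkn2c and Cdkn2d probes by group, with samples in colour (blue wildtype, orange Smchd1 null), group means as black lines, single tumour arrays in grey and the floor as a grey line where it falls in the range. Hras ILMN_1223624 dropped in tumours while ILMN_2481071 and Nras ILMN_2837543 stayed near 10 and 12.

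Trp53 signal was partly back in the tumours. By ILMN_2466845 the wildtype recipients were at 7.96, 8.00 and 8.86 and the null recipients at 8.11, 8.32 and 8.21. All 6 tumours were above all 6 transformed cultures and below all 6 primary cultures. The rise from transformed MEFs was 0.69 ± 0.18 in wildtype (1.61-fold, limma, adjusted p = 0.00671) and 0.66 ± 0.18 in null (1.58-fold, adjusted p = 0.00745). The tumours stayed 6.47-fold below primary MEFs in wildtype (difference -2.69 ± 0.18, adjusted p = 1.85e-09) and 5.41-fold below in null (difference -2.44 ± 0.18, adjusted p = 6.38e-09). Recipient 3 set much of the wildtype value: without it the rise was 0.40 and was not called (adjusted p = 0.102). In null, the call was lost without recipient 5 (0.61, adjusted p = 0.0602). On tumour chip 3 alone neither rise was called (0.61, adjusted p = 0.1, and 0.46, adjusted p = 0.189). The rises on the deposited scale were 1.21 and 1.18, where the median over all kept probes was 0.28 and 0.26.

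Many markers of host cells moved with this return. In tumours against transformed MEFs, 10 of 10 macrophage genes and 4 of 4 erythroid genes were called higher in both genotypes. Of 7 endothelial genes, 6 were called higher and 1 lower in wildtype, and 5 higher and 0 lower in null. Of 4 skeletal muscle genes, 0 were called in wildtype and 2 were called higher in null. The summed macrophage level was between 9.87 and 10.05 in all transformed cultures and between 14.51 and 15.41 in tumours. Of the macrophage genes, Adgre1, C1qb, C1qc, Csf1r, Lyz2 and Tyrobp were above the floor on no array of transformed MEFs of either genotype, nor were C1qa and Laptm5 in wildtype. Fibroblast markers were called higher in 0 of 10 in wildtype and 2 of 10 in null. Of 7 keratinocyte and epithelial genes, 2 were called higher and 1 lower in each genotype. Wildtype recipient 3, with the highest Trp53 level, had the highest keratinocyte and epithelial sum of the 6 tumours, 15.03 against 11.39 to 13.89 in the others. Of the genes in that sum, Krt5 and Trp63 were above the floor on no wildtype tumour array. Of the wildtype recipients, recipient 3 had the lowest macrophage, erythroid, skeletal muscle and fibroblast sums (15.01, 14.96, 8.91 and 15.85). Its endothelial sum of 12.20 lay between those of recipients 1 and 2. The part of host cells in the Trp53 rise was not tested. In these bulk samples, fewer cells of a type and less RNA per cell cannot be told apart.

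The other tested Trp53 probe, ILMN_1231006, behaved differently. It was above the floor on 1 of 12 culture arrays and on 17 of 18 tumour arrays, and it was as dim in primary MEFs as in transformed ones. Its log2 level was 6.16, 6.30 and 6.13 in wildtype primary cultures, and transformation moved it by -0.06 ± 0.10 (adjusted p = 0.692). In null it moved by 0.17 ± 0.10 (adjusted p = 0.187), which was called without null transformed replicate 3 (0.27, adjusted p = 0.0499). In tumours it reached 8.08, 6.65 and 8.58 in wildtype recipients and 8.17, 8.13 and 7.87 in null ones. All 6 tumours were above all cultures, and recipient 2 was lowest. Wildtype tumours were at least 2.55-fold above transformed MEFs, whose arrays were not above the floor (difference 1.63 ± 0.26, adjusted p = 0.000104). Such a bound sets the tumour mean against the floor. In null the difference was 1.72 ± 0.26 (adjusted p = 5.05e-05). Without one recipient or on one chip, these differences ranged from 1.16 to 2.32 in wildtype and from 1.10 to 2.15 in null, and each was called. The probe passed the filter on dim probes only through its tumour arrays, so these calls are not independent of the filter.

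The 2 Trp53 probes did not follow each other over the 18 tumour arrays, with a Pearson correlation of 0.20 and a Spearman correlation of 0.07. Over the same arrays 204 other probes correlated above 0.9 with ILMN_1231006, and 3 did so with ILMN_2466845. The nearest to ILMN_1231006 were A230067E15RIK (0.984), 9630032J03RIK (0.975), Trrap (0.973), Zfp157 (0.971) and D130066L18RIK (0.969), a set looked up after the values were seen. Of the 204, 104 carried the name of a RIKEN clone (51%), against 16.5% of all kept probes. In tumours against transformed MEFs 87.7% of the 204 were called higher in wildtype and 91.2% in null. Of all kept probes 16.9% and 19.1% were. The median difference of the 204 was 1.4 in wildtype and 1.63 in null. The 204 were picked by their likeness to ILMN_1231006 over these same tumour arrays, so their rise is not a separate test. Of them 64 were above the floor on 2 or fewer of 12 culture arrays, against 3282 of all 23962 kept probes.

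Cdkn2a rose more than any other gene of the group. The probe ILMN_1226950 was below or near the floor in primary MEFs, with 6.23, 6.21 and 6.03 in wildtype and 6.46, 6.05 and 6.11 in null. After transformation it stood at 14.43, 14.31 and 14.29 in wildtype and at 14.15, 14.14 and 14.26 in null. No wildtype primary array was above the floor, so the rise in wildtype was at least 243-fold (difference 8.19 ± 0.11, adjusted p = 1.46e-14). In null the difference was 7.97 ± 0.11 (adjusted p = 1.38e-14). By p-value the 3 Cdkn2a probes ranked 3, 4 and 8 among 23962 probes in wildtype and 3, 4 and 10 in null. These ranks rest in part on primary levels that were not above the floor, for ILMN_1226950 in wildtype and ILMN_1227342 in both genotypes. Of the 14 tested probes 7 were called in wildtype, 6 higher and 1 lower, where 43.8% of all kept probes were called, 23.5% higher and 20.3% lower. In null 8 of the 14 were called, 7 higher and 1 lower, where 46.9% of all kept probes were called, 26.4% higher and 20.5% lower.

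The other Cdkn2a probes gave the same picture. ILMN_1221177 went from 6.69, 6.92 and 6.57 to 13.98, 13.93 and 13.87 in wildtype, and from 6.72, 6.59 and 6.62 to 13.77, 13.73 and 13.92 in null. The differences were 7.20 ± 0.10, or 147-fold, and 7.17 ± 0.10 (adjusted p = 1.46e-14 and 1.38e-14). ILMN_1227342 went from 6.19, 6.16 and 6.12 to 13.32, 13.26 and 13.35 in wildtype, and from 6.17, 6.02 and 6.03 to 12.81, 12.71 and 13.17 in null. It rose at least 119-fold in wildtype and at least 88.8-fold in null (adjusted p = 2.61e-14 and 4.38e-14). Which of the p16Ink4a and p19Arf transcripts each probe sees was not looked up.

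In tumours the Cdkn2a probes were lower than in transformed MEFs and still above primary MEFs. ILMN_1226950 was at 13.00, 13.40 and 13.60 in wildtype recipients and at 13.27, 13.32 and 13.01 in null ones, below every transformed culture. ILMN_1221177 was at 11.52, 12.91 and 12.96 in wildtype, where recipient 1 was lowest, and at 12.46, 12.20 and 12.59 in null. ILMN_1227342 was at 10.96, 11.39 and 11.28 in wildtype and at 10.52, 11.00 and 9.99 in null. In every case the tumours did not overlap the transformed cultures. From transformed MEFs to tumours the differences of the 3 probes were -1.01, -1.46 and -2.10 in wildtype (SE 0.18, 0.24 and 0.20) with adjusted p from 2.94e-07 to 0.000247. In null they were -0.98, -1.39 and -2.39 (adjusted p from 7.25e-08 to 0.000249). With the values as deposited the falls were smaller, with differences of -0.81 and -0.74 for ILMN_1226950, and each was still called.

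The size of the fall thus differed between probes of one gene, from 2.01-fold for ILMN_1226950 to 4.29-fold for ILMN_1227342 in wildtype and from 1.98-fold to 5.25-fold in null. The difference between probes was not tested. Over the 18 tumour arrays ILMN_1226950 correlated at 0.44 with ILMN_1221177 and at 0.05 with ILMN_1227342. The host cell markers that rose between transformed MEFs and tumours rose here too, and their part in the fall was not tested. Against primary MEFs the tumours were still at least 121-fold higher in wildtype by ILMN_1226950 (difference 7.18 ± 0.18), and by 6.99 ± 0.18 on the log2 scale in null.

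**Figure D3:**
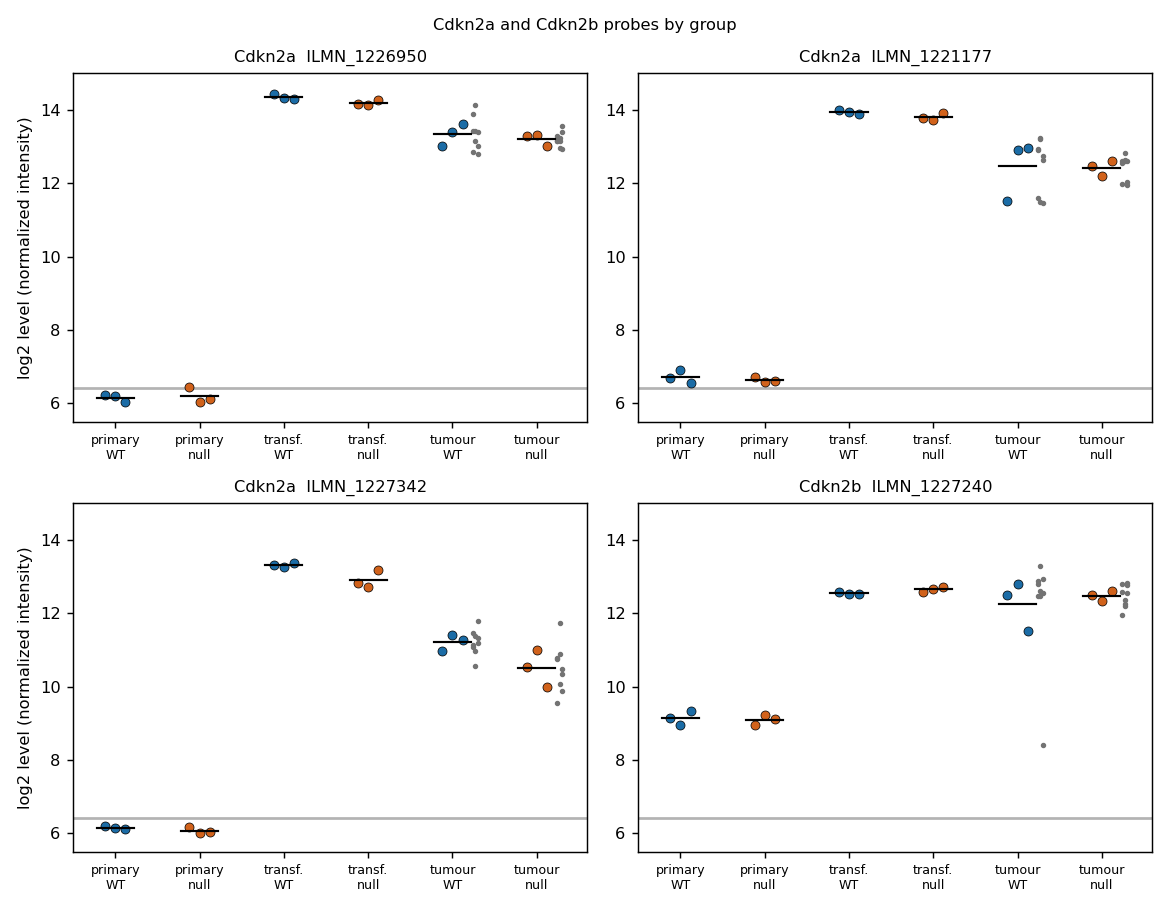
Log2 level (normalized intensity) of the 3 Cdkn2a probes and the Cdkn2b probe by group, with samples in colour (blue wildtype, orange Smchd1 null), group means as black lines, single tumour arrays in grey and the floor as a grey line. The Cdkn2a probes were far above the floor after transformation and lower in tumours, and the lone grey Cdkn2b point at 8.40 is array 3 of wildtype recipient 3.

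Cdkn2b, which encodes p15Ink4b and is a known target of TGF-beta signalling, rose as well, from a level that was already above the floor. Its probe ILMN_1227240 was at 9.13, 8.96 and 9.34 in wildtype primary MEFs and at 8.95, 9.23 and 9.11 in null ones. Transformed cultures were at 12.57, 12.52 and 12.52 in wildtype and at 12.57, 12.66 and 12.71 in null, with no overlap. The differences were 3.40 ± 0.11 (10.5-fold, adjusted p = 2.91e-11) and 3.55 ± 0.11 (11.7-fold, adjusted p = 1.91e-11). Mtap, which lies on the other side of Cdkn2a from Cdkn2b and encodes an enzyme of methionine salvage, rose by 0.60 ± 0.11 and 0.90 ± 0.11 (adjusted p = 5e-04 and 1.47e-05).

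In tumours no difference of Cdkn2b from transformed MEFs was called. Recipients were at 12.49, 12.79 and 11.50 in wildtype and at 12.49, 12.32 and 12.60 in null. The differences were -0.28 ± 0.22 and -0.18 ± 0.22 (adjusted p = 0.362 and 0.569), with 95% intervals from -0.73 to 0.18 and from -0.63 to 0.28. The low wildtype value came from 1 array of recipient 3, at 8.40 where the highest array of that mouse was at 13.28. Without that array the mouse was at 13.04 and the wildtype difference was 0.24 ± 0.17 (adjusted p = 0.3). Against primary MEFs tumours were higher by 3.12 ± 0.22 in wildtype (adjusted p = 2.18e-09) and by 3.37 ± 0.22 in null (adjusted p = 8.08e-10). Over the 18 tumour arrays Cdkn2b correlated at 0.50 with Cdkn2a ILMN_1226950, and at 0.64 over the 17 arrays left without that one.

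Cdkn2c, which encodes p18Ink4c and lies elsewhere on chromosome 4, changed far less. ILMN_1228366 was at 9.75, 9.43 and 9.57 in wildtype primary MEFs and at 10.21, 10.14 and 10.04 after transformation. In null it went from 9.69, 9.57 and 9.36 to 9.86, 9.97 and 9.76. The differences were 0.55 ± 0.11 (adjusted p = 0.00117) and 0.32 ± 0.11 (adjusted p = 0.0296). The wildtype call was lost in an unweighted fit of all groups (adjusted p = 0.216). The null call was lost without null primary replicate 2 (0.34, adjusted p = 0.0521) or 3 (0.23, adjusted p = 0.128), without null transformed replicate 1 (0.32, adjusted p = 0.061) or 2 (0.27, adjusted p = 0.105), on the deposited scale (0.24, adjusted p = 0.0893) and when all 6 groups were fitted together, with weights by stage or without (adjusted p = 0.134 and 0.488). ILMN_1215651, above the floor on 15 of 30 arrays, went from 6.24, 6.45 and 6.19 to 7.63, 7.45 and 7.28 in wildtype and from 6.41, 6.36 and 6.10 to 6.68, 7.14 and 6.96 in null, without overlap. It rose by 1.16 ± 0.14 in wildtype (adjusted p = 1.17e-05) and by 0.64 ± 0.14, or at least 1.42-fold, in null (adjusted p = 0.00166).

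Tumour levels of Cdkn2c were spread widely between mice. ILMN_1228366 was at 9.51, 10.13 and 8.52 in wildtype recipients and at 8.95, 9.60 and 8.39 in null ones. Recipients 3 and 6, with the lowest levels, had the highest keratinocyte and epithelial sums (15.03 and 13.89, against 11.39 to 12.34 in the others). They also had the lowest macrophage, erythroid and fibroblast sums. Among the others this order did not hold. Recipient 5 had a keratinocyte and epithelial sum of 12.34 and a Cdkn2c level of 9.60, and recipient 4 had 11.90 and 8.95. The part of these cell types in the Cdkn2c level was not tested. The differences from transformed MEFs were -0.75 ± 0.27 and -0.88 ± 0.27 (adjusted p = 0.0404 and 0.0144). Wildtype groups overlapped for this probe, and both calls were lost on the deposited scale (-0.26 and -0.39, adjusted p = 0.472 and 0.265), when each stage kept its own spread (adjusted p = 0.157 and 0.0961) and without the filter on dim probes (adjusted p = 0.132 and 0.0628). Without wildtype recipient 3 the difference was -0.31 (adjusted p = 0.431), and the wildtype call was also lost without recipient 1, without wildtype transformed replicate 1 or 2, on tumour chip 1 or 3 alone, in an unweighted fit and with the median probe as the floor (adjusted p from 0.0555 to 0.0959). The null call was lost without recipient 4 (-0.87, adjusted p = 0.0674) or 6 (-0.59, adjusted p = 0.15) and on tumour chip 2 alone (-0.47, adjusted p = 0.304). ILMN_1215651 was called lower in wildtype only (-0.74 ± 0.24, adjusted p = 0.0236, against -0.49 ± 0.24, adjusted p = 0.121, in null). That call was lost without recipient 3 (-0.49, adjusted p = 0.189), recipient 1 (-0.65, adjusted p = 0.136) or wildtype transformed replicate 1 (-0.65, adjusted p = 0.0566), on the deposited scale (-0.28, adjusted p = 0.378), with each stage's own spread (adjusted p = 0.057) and on tumour chip 2 or 3 alone (adjusted p = 0.0733 and 0.134), while the null difference was called on tumour chip 1 alone (-0.73, adjusted p = 0.0193). Null tumours were called below primary MEFs by ILMN_1228366 only without recipient 5 (-0.87, adjusted p = 0.0327) or on tumour chip 1 or 3 alone (adjusted p = 0.049 and 0.0237), among the alternatives run, and on the deposited scale wildtype tumours were called above primary MEFs by ILMN_1215651 (0.64, adjusted p = 0.038). The 2 Cdkn2c probes correlated at 0.85 over the 18 tumour arrays.

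Cdkn2d, which encodes p19Ink4d, was not called in any comparison. Its probe ILMN_1225214 had group means of 8.80 and 8.73 in primary MEFs, 8.75 and 8.82 in transformed MEFs, and 8.87 and 8.49 in tumours, wildtype first. The lowest and the highest sample, 8.14 and 9.41, were both wildtype tumours, of recipients 3 and 2. Among the wildtype recipients these also had the lowest and the highest Cdkn2c level by ILMN_1228366, and the 2 genes correlated at 0.83 over the 18 tumour arrays. With the values as deposited the wildtype tumours were called above transformed MEFs (0.64, adjusted p = 0.0246).

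**Figure D4:**
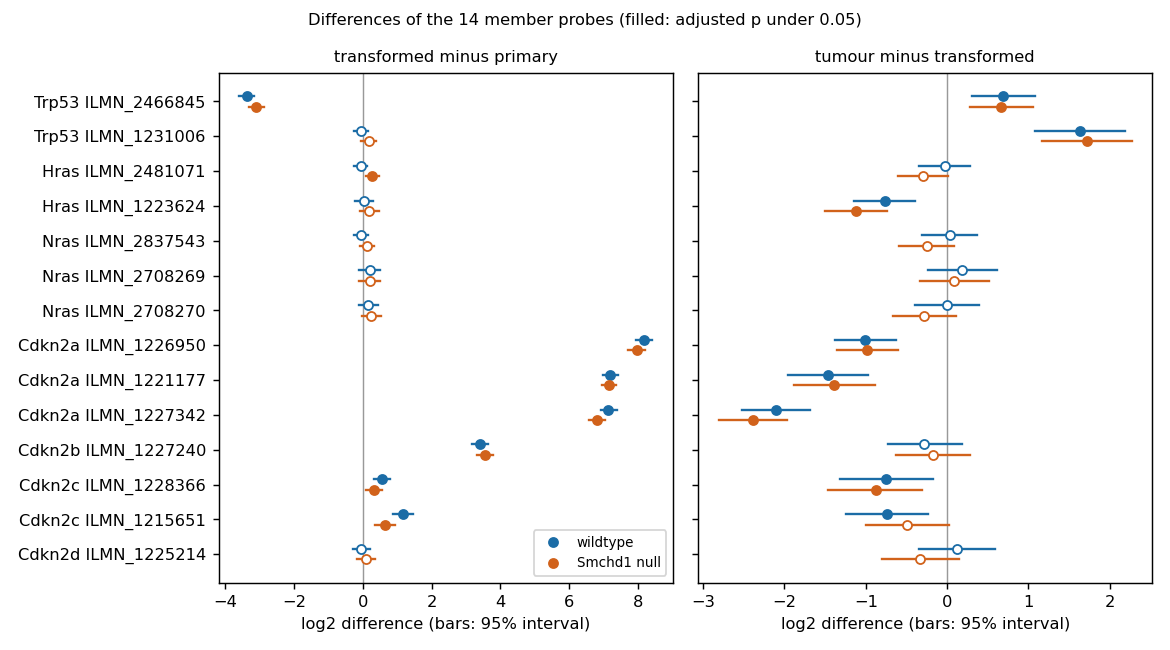
Log2 difference of each of the 14 probes between stages, wildtype in blue and Smchd1 null in orange, with 95% intervals as bars and filled points where limma's adjusted p was under 0.05. Trp53 ILMN_2466845 (-3.38 in wildtype, -3.10 in null), Cdkn2b ILMN_1227240 (3.40 and 3.55) and the Cdkn2a probes (6.82 to 8.19) stand apart in the left panel. The right panel shows the smaller differences of tumours from transformed MEFs.

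Across both steps, 2 of 14 probes were called higher and 6 lower in wildtype tumours against transformed MEFs, where 35.8% of all kept probes were called, 16.9% higher and 19% lower. In null 2 were called higher and 5 lower, where 40.6% of all were called, 19.1% higher and 21.5% lower, so a call is common in these comparisons. Against primary MEFs 5 were called higher and 2 lower in wildtype tumours, where 45.6% of all kept probes were called, 22.4% higher and 23.2% lower. The same counts in null, 5 and 2, stood beside 48.9% of all, 24.1% higher and 24.8% lower. The median difference over the 14 probes was 0.18 with transformation in wildtype and 0.26 in null, against 0.05 and 0.07 over all kept probes. From transformed MEFs to tumours it was -0.15 and -0.32, against -0.04 and -0.05.

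Loss of Smchd1 was not called by limma for any of the 14 probes at any stage, and 1, 4 and 1 of the 14 had an unadjusted p under 0.05 at the primary, transformed and tumour stage, where 5.62%, 19.7% and 2.45% of all kept probes did. Of all kept probes 0.025% were called between genotypes before transformation, 3.98% after it and 0% in tumours. In tumours, where limma called 0 probes, 588 had an unadjusted p under 0.05, and 7 were called when tumour chip was a block and recipient a random block. Trp53 ILMN_2466845 was lower in null primary MEFs (difference -0.32 ± 0.09) without overlap, though not called (adjusted p = 0.81). In transformed MEFs 7 of the 14 probes did not overlap between genotypes, and none of them was called. How many of all kept probes separated in this way was not counted, so the 7 cannot be read as unusual. The null cultures were lower for Cdkn2a ILMN_1227342 (-0.42 ± 0.13, adjusted p = 0.114) and ILMN_1226950 (-0.16 ± 0.09) and for Cdkn2c ILMN_1215651 (-0.53 ± 0.14, adjusted p = 0.0847) and ILMN_1228366 (-0.27 ± 0.09, adjusted p = 0.162). They were higher for Hras ILMN_2481071 (0.20 ± 0.09, adjusted p = 0.249) and ILMN_1223624 (0.16 ± 0.10) and for Nras ILMN_2837543 (0.16 ± 0.08). Cdkn2a ILMN_1221177 overlapped (-0.12 ± 0.09). In tumours Cdkn2a ILMN_1226950 and ILMN_1221177 differed by -0.14 ± 0.19 and -0.04 ± 0.41 in tumours. Cdkn2a ILMN_1227342 differed by -0.71 ± 0.28 in tumours (95% interval from -1.40 to -0.02), which was not called (adjusted p = 1). It was -0.08 on tumour chip 2 alone, -0.86 on chip 1 alone and -1.19 on chip 3 alone.

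The transformation response itself did not differ by genotype at the threshold for any of the 14 probes, where 1.53% of all kept probes were called. An unadjusted p under 0.05 was found for 2 of the 14 and for 14.2% of all kept probes. The estimates ran from -0.53 ± 0.19 for Cdkn2c ILMN_1215651 (adjusted p = 0.226) to 0.33 ± 0.13 for Hras ILMN_2481071 (adjusted p = 0.244). For the Cdkn2a probes they were -0.21 ± 0.16, -0.03 ± 0.14 and -0.33 ± 0.16.

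Genes around p53 were described from 2 lists. The list counts here and below stand beside shares of all kept probes. With transformation 23.5% were called higher and 20.3% lower in wildtype, and 26.4% and 20.5% in null. On the deposited scale these were 17.6% and 24.6%, and 20.1% and 24.5%. For tumours against transformed MEFs the shares were 16.9% and 19% in wildtype and 19.1% and 21.5% in null. With each stage's own spread the tumour shares were 15.3% and 19.5%, and 17.8% and 23%. Of 15 measured regulators and relatives of p53, 2 were called higher and 4 lower with transformation in wildtype, and 4 and 3 in null. With the values as deposited the counts were 2 and 4 in wildtype, and 1 and 3 in null. Mdm2, the ligase for p53, rose by 0.69 ± 0.12 and 0.46 ± 0.12 (adjusted p = 0.000311 and 0.00528). Atm, a kinase of the DNA damage response, rose by 0.39 ± 0.10 and 0.27 ± 0.10. Ppm1d, a phosphatase that turns p53 signalling off, differed by -0.85 and -0.71 (SE 0.09), and Hipk2, a kinase that activates p53, by -1.14 and -1.09 (SE 0.13), each of which was called. The list's median difference was -0.08 in wildtype and 0.10 in null, against 0.05 and 0.07 over all kept probes.

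Of 22 measured p53 target genes, 10 were called higher and 4 lower with transformation in wildtype, and 7 and 6 in null. The counts on the deposited scale were 10 and 7, and 6 and 7. Rrm2b, a ribonucleotide reductase subunit, rose by 1.11 ± 0.11 and 0.83 ± 0.11. Ccng1, cyclin G1, rose by 0.87 ± 0.11 and 0.48 ± 0.11. Bbc3, which encodes the apoptosis protein Puma, rose by 0.80 ± 0.10 in wildtype (adjusted p = 2.72e-05), and its 0.16 ± 0.10 in null was not called (adjusted p = 0.241). The response of Bbc3 differed between genotypes by -0.64 ± 0.14 (limma, adjusted p = 0.0462), a call that was not rerun under other settings. In that comparison 1 of the 22 targets was called higher and 2 lower, Bbc3 among the latter. Of all kept probes 0.53% were called higher and 0.997% lower. Sesn1, a stress-induced sestrin, was lower by -1.57 and -1.86 on the log2 scale (SE 0.11). Thus p53 targets were called in both directions while the Trp53 probe ILMN_2466845 fell in both genotypes.

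In tumours, 13 of the 22 targets were called lower and 1 higher than in transformed MEFs in wildtype, and 10 lower and 4 higher in null. Ccng1 differed by -1.38 in wildtype and -1.27 in null (SE 0.18), to below its primary level (-0.51 and -0.80). On the deposited scale 6 were called lower and 5 higher in wildtype and 5 lower and 6 higher in null, beside 7.45% lower and 35.9% higher of all kept probes in wildtype and 9.39% and 36% in null. With each stage's own spread 13 were called lower and 1 higher in wildtype, and 10 lower and 2 higher in null. The targets called higher, named after their values were seen, were Apaf1, an activator of caspases (0.74 ± 0.22 and 0.86 ± 0.22), and in null also Cdkn1a, which encodes the inhibitor p21 (0.65 ± 0.19, adjusted p = 0.01), Mdm2 (0.53 ± 0.20, adjusted p = 0.0459) and Pmaip1, which encodes the apoptosis protein Noxa (0.65 ± 0.25, adjusted p = 0.0494). With each stage's own spread Apaf1 was called in both genotypes, and Cdkn1a, Mdm2 and Pmaip1 were not (adjusted p = 0.0506, 0.0731 and 0.146). Mdm2 stands in both p53 lists. Between genotypes in transformed MEFs Bbc3, Trp53inp1 and Fas were called lower in null and Ckap2 higher, also named after their values were seen. That is 3 lower and 1 higher of 22, beside 2.2% and 1.78% of all kept probes. The list's median in tumours was -0.51 in wildtype and -0.39 in null.

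Downstream of the INK4 proteins, 18 genes of the cyclin D, Cdk4/6 and Rb axis were measured, with 4 called higher and 5 lower upon transformation in wildtype and 6 and 4 in null. Ccnd1, cyclin D1, which is a known Ras target and partner of Cdk4 and Cdk6, rose by 2.08 ± 0.09 and 2.35 ± 0.09 (adjusted p = 3.55e-10 and 1.03e-10). E2f1 and E2f5, transcription factors bound by the Rb family, rose by 0.74 ± 0.10 and 0.97 ± 0.11 in wildtype and by 1.14 ± 0.10 and 1.17 ± 0.11 in null. Cdkn1c, which encodes the inhibitor p57, had called differences of -1.64 and -2.22 (SE 0.16). In tumours against transformed MEFs, 1 of these 18 was called higher and 3 lower in wildtype and 5 and 4 in null. Deposited values gave 7 higher and 2 lower in wildtype, and 5 and 3 in null, that is 38.9% and 27.8% higher beside 35.9% and 36% of all kept probes. With each stage's own spread the counts were 2 higher and 4 lower, and 4 and 4.

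Of 21 measured Ras family members and regulators, 11 were called higher and 5 lower with transformation in wildtype, and 9 and 5 in null. Deposited values gave counts of 8 and 5, and 7 and 6. Those that rose included Spry4 and Spred1, feedback inhibitors of Ras signalling, by 1.95 ± 0.17 and 0.78 ± 0.12 in wildtype and by 1.78 ± 0.17 and 0.76 ± 0.12 in null. Rasa1, a GTPase activating protein that turns Ras off, rose by 1.21 ± 0.09 and 1.07 ± 0.09. Rasgrp3, an exchange factor that turns Ras on, was lower, with differences of -0.98 and -1.24 (SE 0.14). The list's median was 0.35 in wildtype and 0.29 in null, against 0.05 and 0.07 over all kept probes. Tumours differed from transformed MEFs in 6 genes called higher and 4 lower in wildtype and 7 and 4 in null, and with the values as deposited in 9 and 0 in wildtype and 12 and 1 in null. On that scale these were 42.9% and 57.1% called higher, beside 35.9% and 36% of all kept probes. With each stage's own spread the counts were 4 and 3 in wildtype and 7 and 3 in null.

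Among 22 measured regulators and neighbours of Cdkn2a and Cdkn2b, 6 were called higher and 6 lower with transformation in wildtype, and 9 and 5 in null. That is 27.3% each way in wildtype, and 40.9% and 22.7% in null, beside 23.5% and 20.3%, and 26.4% and 20.5%, of all kept probes. Deposited values gave counts of 5 and 6 in wildtype, and 8 and 6 in null. Id1, which inhibits the Ets factors that activate p16Ink4a, rose by 1.45 ± 0.12 and 1.21 ± 0.12 (adjusted p = 3.34e-07 and 1.85e-06). Twist2, a factor that can repress the INK4 and Arf products, rose by 0.95 ± 0.11 and 1.18 ± 0.11. Ring1, a subunit of the Polycomb complex that silences the locus, was lower by -1.0 and -0.82 on the log2 scale (SE 0.08). In tumours Id1 differed from transformed MEFs by -2.57 and -2.53 (SE 0.20), to below its primary level, and Mtap by -1.39 and -1.91 (SE 0.20). Bmi1 and Ezh2, Polycomb genes, were the members called between genotypes, higher in null transformed MEFs by 0.49 ± 0.10 and 0.71 ± 0.13 (adjusted p = 0.0381 and 0.0253), and are named after their values were seen. That is 2 of 22 called higher and 0 lower, beside 1.78% and 2.2% of all kept probes.

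**Figure D5:**
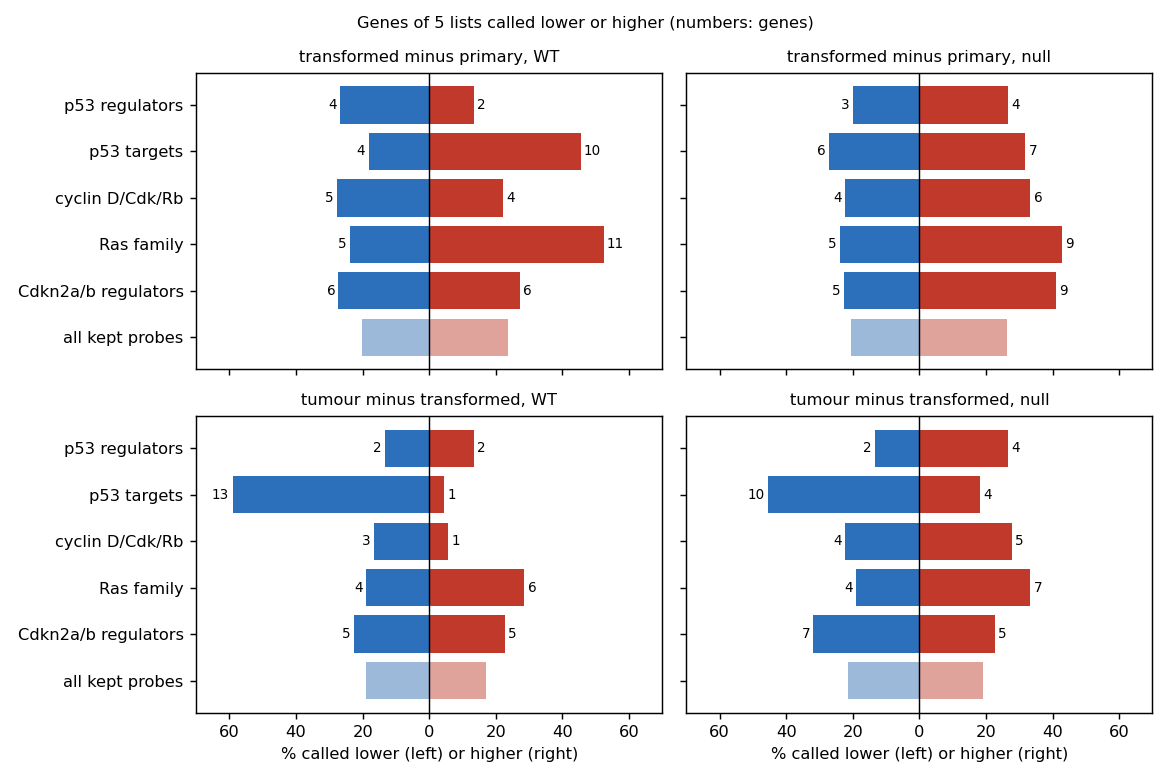
Share of the measured genes of 5 lists that limma called lower (left, blue) or higher (right, red) in 4 comparisons, with the number of genes beside each bar and all 23962 kept probes in pale bars. The p53 targets had 13 of 22 genes lower in wildtype tumours against transformed MEFs.

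Other probes whose level went with Trp53 ILMN_2466845 over the 18 samples were sought by Pearson correlation, and 838 of 23948 exceeded 0.9. The first was the probe ILMN_2486818, which has no current gene symbol (0.992), followed by Mpp3 (0.989), the neurotrophin receptor gene Ntrk2 (0.988), Rasl11b (0.985) and Arf2 (0.985), an ADP-ribosylation factor gene unrelated to p19Arf. Ntrk2 went from a mean of 10.24 in wildtype primary MEFs to 6.69 in transformed MEFs and 7.13 in tumours. For Cdkn2a ILMN_1226950, 356 probes exceeded 0.9. The nearest were ILMN_1245887 and ILMN_1221149 (both 0.993) and ILMN_2473811 (0.992), which have no gene symbol, then Dnali1 (0.992) and Bdnf (0.991), the gene of a neurotrophin that binds the Ntrk2 receptor. The 3 probes without a symbol were below the floor in primary MEFs (means from 6.03 to 6.10) and between 14.86 and 15.13 in transformed MEFs and tumours. These correlations describe 6 groups of 3 samples that share stage, chip and transformation, and they carry no test.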

How the data were processed

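RNA from 30 samples was measured on Illumina MouseWG-6 bead arrays. Per the submitters' processing notes, BeadStudio, R 2.15.1 and limma 3.12.1 were used by the authors. The deposited values are log2 intensities whose sorted values were nearly the same for all arrays of a stage, and their background correction was not stated in the labels. The scanner intensity tables deposited by the authors hold 480 columns that match no sample label and were not used as measurements. An intensity column that 2 of these tables share served to line up the rows of the table with probe IDs and the table with gene names. The deposited log2 values were then joined by probe ID, so that probe names could be read. That column had Spearman correlations of 0.806 to 1 with the deposited arrays. The design had assumed scanner intensities and a filter on detection p, and neither could be used.

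The log2 values were quantile normalized over all 30 arrays. In place of the detection filter, probes above the 60th percentile of all probes (6.42) on at least 3 arrays were kept. This floor is not a measured background, and it was chosen after results under a detection filter were known. limma 3.58.1 (R 4.3.3) tested the values, with Benjamini-Hochberg adjustment over 23962 probes. Genotype was fitted within each stage, transformation over the 4 culture groups, and tumours over all 6 groups with weights by stage. On simulated data that weighted fit made more false calls than its threshold allows, so member calls lost with each stage's own spread, and counts of list genes under it, are given. The 3 arrays of a recipient were averaged. Members and lists were chosen with earlier results of these data known. Named were all tested member probes, 4 genes of each list with the smallest p in wildtype transformation, and the 5 probes most like Trp53 and Cdkn2a. Probe names were matched to current symbols for 27400 probes and to older ones for 8341. The number of arrays limits the precision. Alternatives were the deposited scale, other filters, weights, blocks, single tumour chips and leaving out each replicate.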

Additional observations from a re-analysis of the deposited data

Results flagged for a closer look

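Of 28 probe and tumour group combinations examined for a single array far from the rest, 2 passed the limit. That limit gives about 1 in 20 by chance for 9 independent arrays. The arrays here were 3 from each of 3 mice, so the rate does not hold and the number 2 cannot be judged against it. For Cdkn2b ILMN_1227240, array 3 of wildtype recipient 3 was at 8.40, while the nearest of the other wildtype tumour arrays was at 12.46. For Cdkn2c ILMN_1215651, array 2 of null recipient 5 was at 7.67, while the nearest of the other null tumour arrays was at 6.59. The cause of either was not tested.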

How the results depend on the processing

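Of 2170 member values recomputed under the alternatives, 46 lost a call, 15 gained one on the same side of 0, and 117 changed sign. Of those 117, 114 were called under neither setting, among them Cdkn2b in tumours between genotypes (0.21, with a range from -0.51 to 1.41) and Trp53 ILMN_1231006 there (from -1.02 to 1.18). The other 3 gained a call with the values as deposited: Hras ILMN_2481071 was higher in wildtype tumours than in transformed MEFs (0.46) and in null tumours than in primary MEFs (0.40), and Nras ILMN_2837543 was higher in wildtype tumours than in primary MEFs (0.45). On that scale probes called higher and lower went from 5637 and 4867 to 4210 and 5890 for transformation in wildtype, and from 6316 and 4915 to 4812 and 5875 in null. For tumours against transformed MEFs they went from 4038 and 4550 to 8599 and 1784 in wildtype, and from 4580 and 5156 to 8635 and 2250 in null. For tumours against primary MEFs they went from 5362 and 5568 to 8902 and 3473 in wildtype, and from 5767 and 5948 to 9061 and 3841 in null. Probes called between genotypes in primary MEFs numbered 6, and 2 without the filter on dim probes, 16 in an unweighted fit of all groups and 44 in a weighted one. In transformed MEFs they numbered 953, and 191 unweighted. In tumours they numbered 0, and 23 unweighted, 7 weighted and 7 with chip and recipient as blocks. Unweighted, transformation in wildtype gave 6884 calls against 10504, and the genotype difference of the response 63 against 366. Wildtype tumours against transformed MEFs gave 8588 calls, 5635 with 1 probe per gene (16214 probes) and 5131 on tumour chip 3 alone, and null 9736 and 6411 with 1 probe per gene. Leaving out 1 replicate gave 2 to 4 calls between genotypes in primary MEFs, 188 to 488 in transformed MEFs and 0 in tumours, and 199 to 408 for the difference of the response. It gave 9113 to 9780 for transformation in wildtype and 10065 to 10447 in null, 5563 to 9146 for tumours against transformed MEFs in wildtype and 6750 to 9514 in null, and 8340 to 10927 for tumours against primary MEFs in wildtype and 8821 to 11478 in null. Same-numbered cultures of the 2 genotypes correlated from -0.30 to 0.03 in primary MEFs, where other pairs ran from -0.19 to 0.28. In transformed MEFs they correlated from 0.03 to 0.05, where other pairs ran from -0.03 to 0. Such values, from groups of 3, cannot show whether the numbers pair the cultures. With a replicate block the counts were 2 in primary and 565 in transformed MEFs, 10411 and 11086 for transformation and 299 for its genotype difference, and all 70 member values kept their call. The floor on 15 arrays, the median probe as floor, the fit with each stage's own spread and the fit without array 3 of wildtype recipient 3 were added after seeing the data. Background correction from scanner intensities and a filter on detection p were not run. The cause of these changes was not tested.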
